A study of Mus musculus with 80 samples.

Results

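The neuromuscular junction and denervation genes followed here are 10 genes of mouse skeletal muscle: 4 subunits of the acetylcholine receptor (Chrna1, Chrnb1, Chrnd and Chrne), 3 other genes of the synapse (Rapsn, Musk and Ache), and 3 regulators that respond to loss of nerve activity (Hdac4, Myog and Runx1). They were found by gene name in the male and the female expression table. All 10 were among the 12853 genes of the male table and 9 were among the 11068 genes of the female table, which holds no row for Chrnd. RNA came from the gastrocnemius (a muscle of the calf) of C57BL6/J mice, taken with no unloading (0 h, labelled Control) or once the hindlimbs had been relieved of load for 24, 48, 72 or 168 h. Females gave 8 libraries at each of 0, 24, 48 and 72 h and 7 at 168 h, and males gave 7, 8, 9, 9 and 8 libraries over the same times. The labels give no age, no transgene and no pooling, and do not say that each library is one animal, so the p-values measure the spread between libraries, which may in part be technical.

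At the neuromuscular junction, acetylcholine released by the motor nerve opens a receptor in the muscle fibre membrane. In adult fibres this receptor is built from alpha (Chrna1), beta (Chrnb1), delta (Chrnd) and epsilon (Chrne) subunits, with epsilon taking the place of the fetal gamma subunit (Chrng). Agrin from the nerve signals through Lrp4 and the kinase Musk to gather receptors, which rapsyn (Rapsn) anchors, and acetylcholinesterase (Ache) ends each signal. When a fibre is denervated, Hdac4 is known to rise and to hold down Dach2, a repressor of myogenin, which lets myogenin (Myog) drive receptor genes, and Runx1 is induced as well. Hindlimb unloading removes weight bearing from the limb and leaves the nerve attached.

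The upstream sequences of 4 members are shown because 3 of them encode receptor subunits whose courses differed from each other below, and the fourth encodes the receptor kinase. Each is the 250 bases before the annotated start in the gene's own orientation, from RefSeq on GRCm38.p6. Capitals mark an E-box (CANNTG, the core bound by myogenin and its relatives, searched on both strands) or an N-box (CCGGAA on either strand, a core bound by GABP at synaptic genes).
Chrna1: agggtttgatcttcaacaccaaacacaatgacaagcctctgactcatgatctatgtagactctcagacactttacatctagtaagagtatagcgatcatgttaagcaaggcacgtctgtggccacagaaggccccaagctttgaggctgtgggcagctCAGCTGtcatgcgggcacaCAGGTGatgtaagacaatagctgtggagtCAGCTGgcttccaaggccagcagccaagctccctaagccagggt
Chrnb1: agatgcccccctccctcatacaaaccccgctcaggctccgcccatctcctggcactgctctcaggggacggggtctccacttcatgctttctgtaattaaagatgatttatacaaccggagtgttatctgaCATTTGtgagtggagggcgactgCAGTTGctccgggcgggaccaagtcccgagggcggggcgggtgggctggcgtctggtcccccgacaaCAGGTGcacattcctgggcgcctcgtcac
Chrne: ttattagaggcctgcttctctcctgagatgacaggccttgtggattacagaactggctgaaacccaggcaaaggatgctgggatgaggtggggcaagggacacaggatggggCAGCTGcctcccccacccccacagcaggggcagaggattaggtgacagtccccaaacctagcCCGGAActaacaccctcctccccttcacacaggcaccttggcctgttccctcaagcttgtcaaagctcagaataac
Musk: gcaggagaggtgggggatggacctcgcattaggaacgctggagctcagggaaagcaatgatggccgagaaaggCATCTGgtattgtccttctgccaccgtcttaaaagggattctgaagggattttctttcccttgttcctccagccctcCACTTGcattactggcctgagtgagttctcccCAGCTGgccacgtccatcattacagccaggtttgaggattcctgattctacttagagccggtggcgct

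These windows lie at chr2:73580339-73580588 on the minus strand, chr11:69795938-69796187 on the minus strand, chr11:70619195-70619444 on the minus strand and chr4:58285712-58285961 on the plus strand. The E-box variant CAGCTG, which also matches CANNTG, begins 92 and 44 bases before the Chrna1 start, 138 bases before the Chrne start and 68 bases before the Musk start. In the Chrnb1 window 3 other E-boxes begin 119, 96 and 29 bases before the start. CCGGAA begins 76 bases before the Chrne start and is in none of the other 3 windows shown. RefSeq windows were matched for 8 of the 10 members, of which 7 held CANNTG, 3 CAGCTG and 2 CCGGAA in at least one window. Among 32851 mouse windows of the same length 66.2% held CANNTG, 13% CAGCTG and 12% CCGGAA, and a match is only a description of the letters.

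The values are a normalized signal, that is, estimated reads divided by one factor per library, and levels were not compared between the sexes because each table was normalized on its own. Depth came to between 5.57 and 50.5 M estimated reads per female library and between 18 and 49.7 M per male library. The shallowest were the female 24 h (6.41 to 11.8 M) and 72 h libraries (5.57 to 9.63 M). In 7 of the 39 female libraries the median Spearman correlation with the rest of the group was under 0.95 (0 h replicate 7, 24 h replicates 1 and 2, 48 h replicate 5, 72 h replicates 2 and 5, and 168 h replicate 7), and no male library was that low. Without these 7 libraries 14 of the 16 female calls described below held. Library titles carry an S number whose meaning the labels do not give, and it follows time in part. In females it ran from 9 to 16 at 0 h, 27 to 48 at 24 h, 1 to 8 at 48 h, 3 to 24 at 72 h and 50 to 62 at 168 h, and in males from 26 to 40, 1 to 15, 1 to 16, 2 to 28 and 27 to 41 over the same times. Whatever it stands for and time cannot be told apart where the ranges differ, while male 168 and 0 h libraries share one range. All 8 skeletal muscle fibre markers were measured and none was at 0, 5 of 10 Schwann cell markers were measured, and none of 6 axon markers was in either table.

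Changes are differences of mean log2(signal + 1) from limma, with standard error, unloaded minus 0 h, and a member was called at a Benjamini-Hochberg adjusted p under 0.05 over all genes of its table. In females, 3 of 9 members were called at 24 h, where 24.7% of all genes were, 6 at 48 h (38.1% of all genes), 3 at 72 h (30%) and 1 at 168 h (10.7%). In males, 3 of 10 were called at 24 h (29.1% of all genes), 5 at 48 h (31%), 1 at 72 h (10.8%) and 2 at 168 h (22.5%). Over the whole course, 6 of 9 members changed in females, against 43.2% of all genes, and 6 of 10 in males, against 37.2%. Ache, Chrnb1, Chrne, Hdac4 and Rapsn were called in both sexes, Runx1 in females and Chrna1 in males. Markers of other cell types moved in the same comparisons. In females 5 of 7 fibro-adipogenic progenitor and 4 of 5 tenocyte markers were lower at 48 h than at 0 h, where 17.1% of all genes were. At 72 h 4 of 7 and 4 of 5 were lower together with 5 of 5 red blood cell markers, where 13.2% of all genes were. Of 8 skeletal muscle fibre markers 3 were lower in females at each of these times. The red blood cell markers summed to 6294 to 13480 at 72 h, against 9739 to 31950 at 0 h. All 5 were higher at 168 h than at 72 h, where 3.56% of all genes were called in either direction. In males all 3 measured smooth muscle markers were lower at 48 h, where 14.7% of all genes were. There 1 of 7 fibro-adipogenic progenitor markers was higher and 0 lower. The part of these cell types in the members' changes was not tested. The median log2 change of the members at 24, 48, 72 and 168 h was 0.135, 0.154, 0.297 and 0.298 in females, beside 0.063, 0.06, 0.026 and 0.048 over all genes. In males it was 0.055, 0.055, 0.171 and 0.016, beside 0.007, 0.006, -0.004 and 0 over all genes. The medians hide opposite movements, since at 48 h Chrnb1 and Hdac4 rose in both sexes while Ache fell.

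**Figure D1:**
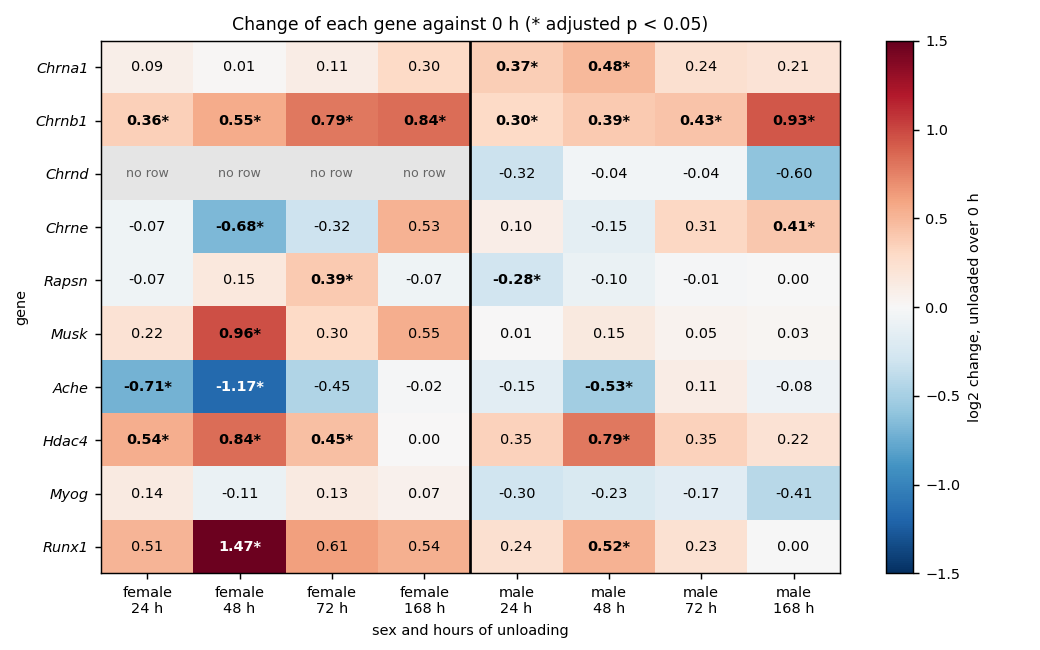
Log2 change of each gene (rows) at each time against 0 h in females (left 4 columns) and males (right 4 columns), with values printed and called changes starred. Chrnb1 is starred in all 8 columns, and the largest change is that of Runx1 in females at 48 h, 1.47. The female Runx1 row is present only through its 48 and 72 h libraries.

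Per kilobase of annotated exon, the 0 h level of the members spanned a wide range in each sex. In females the medians were 219 for Chrnb1, 217 for Rapsn, 153 for Chrne, 118 for Ache, 82.6 for Myog, 62.9 for Chrna1, 33.2 for Musk, 32.9 for Hdac4 and 2.49 for Runx1. Neighbours in this order overlapped over the 8 libraries except at 4 steps, Rapsn above Chrne, Ache above Myog, Chrna1 above Musk and Hdac4 above Runx1. In males the medians were 384 for Rapsn, 379 for Chrnb1, 235 for Chrne, 179 for Musk, 171 for Ache, 111 for Chrna1, 90.6 for Myog, 69.5 for Hdac4, 26.6 for Chrnd and 8.59 for Runx1. Here neighbours overlapped except at 4 steps, Chrnb1 above Chrne, Ache above Chrna1, Hdac4 above Chrnd and Chrnd above Runx1. Exon lengths are the union of all exons annotated for a gene in GRCm38. This came to 15813 bases for Hdac4 and 12025 for Runx1, against 1495 (Myog) to 4623 (Ache) for the others. How much of this length the transcripts in muscle use was not tested, and the order depends on it.

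Chrnb1 (chromosome 11, 69674862 to 69686770, minus strand, in the coordinates of the deposited tables, whose build the tables do not name), the beta subunit, was the one member that rose at every time in both sexes. Of 12831 matched genes in the male table, 2.49% had their GRCm38 start and 98.3% their GRCm38 length. Except for the start of Musk, the gene coordinates given here and below thus differ from those of the GRCm38 windows above. Female libraries had a median signal of 555, 776, 843, 1002 and 989 at 0, 24, 48, 72 and 168 h, with ranges of 467 to 721, 616 to 851, 708 to 1025, 951 to 1057 and 734 to 1549. All female libraries at 72 and at 168 h lay above all those at 0 h. The female log2 changes were 0.36 ± 0.11 (adjusted p = 0.0189, limma), 0.55 ± 0.11 (0.000215), 0.79 ± 0.11 (2.25e-06) and 0.84 ± 0.12 (5.45e-06), or 1.28-, 1.47-, 1.73- and 1.79-fold. Male libraries had medians of 959, 1214, 1281, 1327 and 1861, with ranges of 726 to 1209, 810 to 1460, 949 to 1735, 1099 to 1487 and 1579 to 2138. At 168 h all 8 male libraries lay above the 7 at 0 h, and also above the 9 at 72 h. The male changes were 0.30 ± 0.12 (0.0457), 0.39 ± 0.11 (0.0067), 0.43 ± 0.11 (0.00973) and 0.93 ± 0.12 (3.43e-07), the last being 1.91-fold. Between 72 and 168 h the male level rose by a further 0.50 ± 0.11 (0.0416), where 0.296% of all genes were called. This last call ended without any one of 9 libraries of these times (168 h replicates 3, 6, 7 and 8 and 72 h replicates 3, 4, 5, 8 and 9), with adjusted p of 0.0537 to 0.0688. The male call at 24 h ended without any one of 10 libraries (0 h replicates 2, 4, 5 and 6 and 24 h replicates 1, 2, 3, 4, 7 and 8; adjusted p 0.0522 to 0.134), with scaling to the library total (0.146) and with only the 2 groups in the fit (0.0948). In females the 24 h call ended with scaling to the library total (0.0746) and with quantile normalization (0.0794). In bulk tissue, more cells of a type and more RNA per cell cannot be told apart, nor can fewer and less, and this holds for every member.

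**Figure D2:**
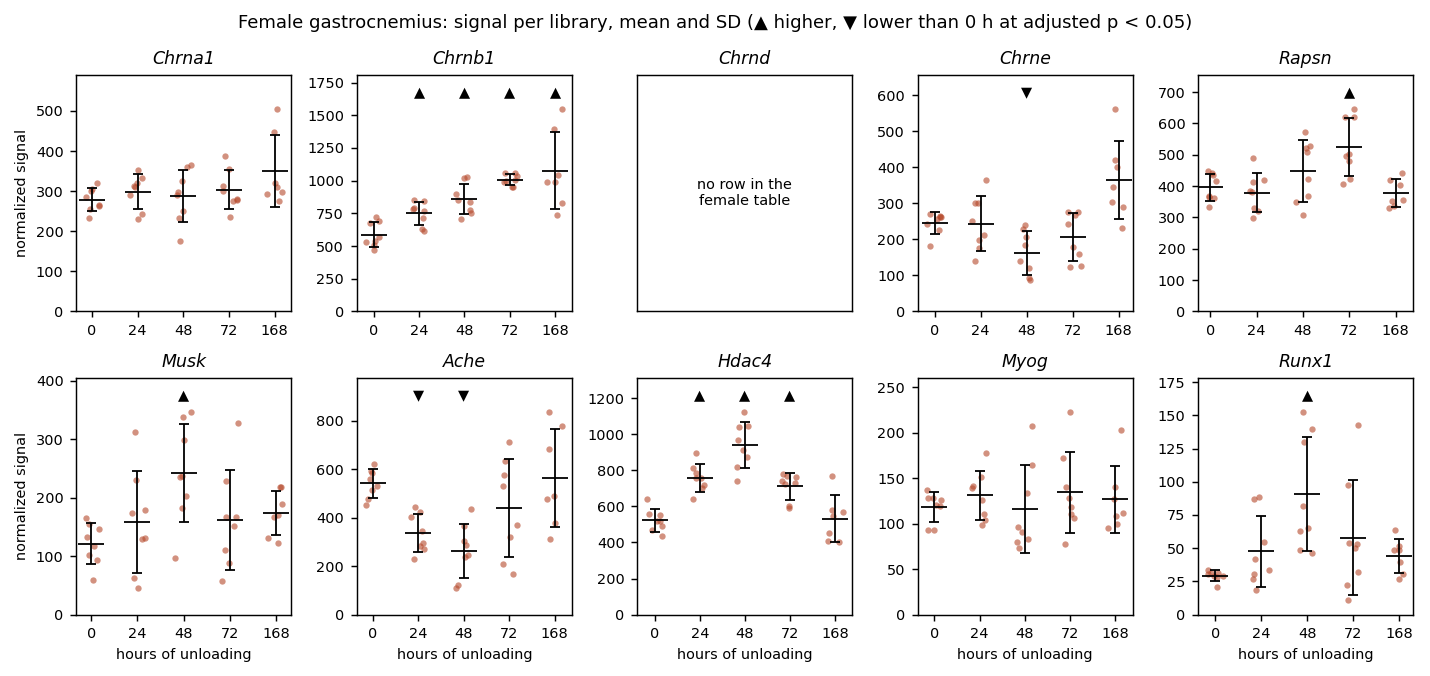
Normalized signal of each gene in each female library (points) over hours of unloading, with mean and SD (bars) and triangles for called changes against 0 h. Chrnb1 is marked at all 4 times and Hdac4 at 24, 48 and 72 h, while Ache is marked lower at 24 and 48 h.

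Chrna1 (chromosome 2, 73393559 to 73410683, minus strand), the acetylcholine-binding alpha subunit, rose in males at 24 and 48 h and was called at no time in females. Male medians were 487, 608, 648, 537 and 521 over the 5 times, with ranges of 416 to 531, 516 to 742, 411 to 914, 453 to 713 and 464 to 741. The 24 h change was 0.37 ± 0.12 (adjusted p = 0.0198, limma; higher than the 0 h mean in 8 of 8 libraries), and scaling to the library total ended it (0.0509). The 48 h change was 0.48 ± 0.12 (0.00182; 8 of 9 libraries). Female medians were 276, 311, 295, 290 and 310, with ranges that overlapped at every time and changes between 0.01 ± 0.13 and 0.30 ± 0.14 that did not pass the test. At 48 h the female change minus the male change was -0.47 ± 0.18 (adjusted p = 0.257), so the difference between the sexes itself did not pass either.

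Chrne (chromosome 11, 70505709 to 70510043, minus strand), the epsilon subunit that marks the adult receptor, had its lowest median at 48 h in both sexes, and only the female fall there passed the test. Female medians were 259, 232, 163, 210 and 346, with ranges of 181 to 270, 139 to 366, 87.4 to 239, 123 to 277 and 232 to 563. At 48 h it fell by 0.68 ± 0.22 on the log2 scale (adjusted p = 0.0123, limma), with all 8 libraries below the 0 h mean. Between 72 and 168 h the female level rose by 0.84 ± 0.22 (0.027), a comparison in which 3 of 9 members and 3.56% of all genes were called. Leaving out any one of 168 h replicates 1 and 3 and 72 h replicates 4 and 7 ended that rise (0.0616 to 0.0961), and so did fitting only the 2 groups (0.0642). Against 0 h the female 168 h change was 0.53 (adjusted p = 0.134, limma). That change passed with array weights (0.0366) and with only the 2 groups in the fit (0.0237). Male medians were 397, 413, 369, 468 and 535, with ranges of 327 to 460, 342 to 516, 224 to 521, 410 to 653 and 421 to 662. The male 48 h change was -0.15 ± 0.14 (0.436; 4 libraries higher and 5 lower than the 0 h mean). The male 72 h change against 0 h was 0.31 (0.137), and it passed with array weights (0.0248) and with only the 2 groups in the fit (0.0317). Males rose by 0.41 ± 0.14 at 168 h (0.0311; 8 of 8 libraries), and this call ended without any one of 0 h replicates 5 and 6 and 168 h replicates 4 and 6 (0.0532 to 0.0746). From 48 to 72 h the male level rose by 0.46 ± 0.13 (0.0185), where 3 of 10 members and 8.81% of all genes were called, and this ended without any one of 48 h replicates 1, 2 and 6 (0.052 to 0.0641). It also ended with only the 2 groups in the fit (0.0879).

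Chrnd (chromosome 1, 87118329 to 87127793, plus strand), the delta subunit, was measured in males only and was called at no time. Its medians were 87.5, 67, 92.6, 84.1 and 60 over the 5 times, from 16 to 198 estimated reads per library. The 168 h change was -0.60 ± 0.25 (adjusted p = 0.07, limma), with all 8 libraries below the 0 h mean. It passed the test with array weights (0.0267) and without any one of 0 h replicate 7, 168 h replicate 4 and 48 h replicate 6 (0.0146 to 0.0487), so its side of the threshold rests on single libraries.

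Ratios of subunit signals inside one library do not depend on the factor by which that library was scaled, and are given as a description chosen after the values were seen. In females the median ratio of Chrnb1 to Chrna1 was 2.01, 2.58, 2.88, 3.35 and 3.19 over the 5 times. In males it was 2.17, 2.05, 1.9, 2.28 and 3.36, and at 168 h its range of 2.76 to 4.11 lay above that at 0 h, 1.53 to 2.39. The median ratio of Chrne to Chrnb1 in females was 0.422, 0.321, 0.181, 0.216 and 0.366. At 48 and 72 h the highest female library, at 0.287 and 0.278, lay below the lowest at 0 h, 0.333. In males that ratio was 0.399, 0.346, 0.365, 0.38 and 0.299, and its ranges overlapped at every time. The epsilon share relative to beta thus had its lowest median at 48 h in females and at 168 h in males. Relative to alpha its lowest median was at 48 h in both sexes. The median ratio of Chrne to Chrna1 was 0.896, 0.733, 0.513, 0.687 and 1.079 in females. In males it was 0.822, 0.701, 0.57, 0.888 and 0.93, and in both sexes its ranges overlapped that at 0 h at every time. Chrng, the fetal subunit, was in neither table.

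**Figure D3:**
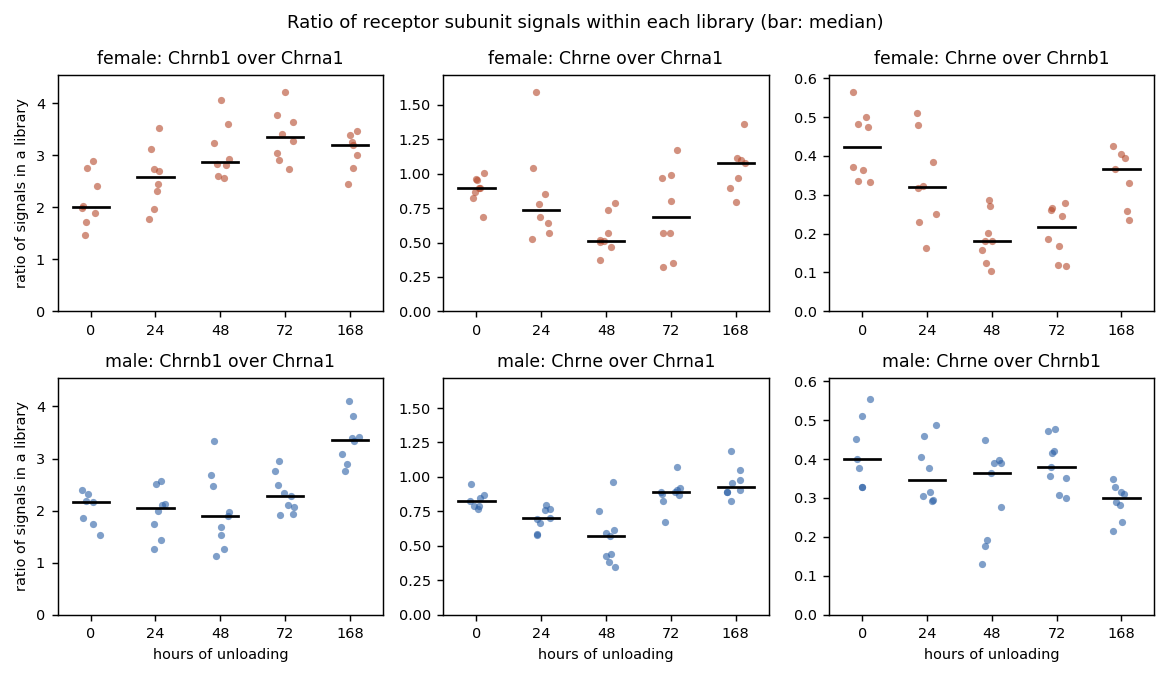
Ratio of receptor subunit signals within each library (points; bar, median) over hours of unloading, females above and males below. In the upper right panel the 48 and 72 h points lie below all 0 h points, and in the lower left panel the 168 h points lie above them.

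Rapsn (chromosome 2, 90865965 to 90876075, plus strand), which clusters receptors beneath the nerve terminal, fell in males at 24 h and rose in females at 72 h. Female medians were 391, 382, 466.2, 499 and 355, with ranges of 332 to 449, 297 to 488, 308 to 572, 406 to 646 and 331 to 442. The 72 h rise was 0.39 ± 0.12 (adjusted p = 0.0114, limma; 8 of 8 libraries), and from 72 to 168 h the level fell by 0.46 ± 0.12 (0.0284). That fall ended without the 7 libraries that stood apart (0.0803) and without any one of 168 h replicates 2, 3 and 6 and 72 h replicates 5 and 7 (0.0551 to 0.0815). It also ended with only the 2 groups in the fit (0.0517). Male medians were 692, 544, 649, 663 and 692, with ranges of 564 to 812, 500 to 667, 551 to 727, 593 to 772 and 505 to 804. The 24 h change in males was -0.28 ± 0.09 (0.0164; 8 of 8 libraries lower), and it ended without 0 h replicate 6 (0.0508).

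Musk (chromosome 4, 58285960 to 58374304, plus strand), the kinase that responds to agrin, rose in females at 48 h. Female medians were 125, 152, 237, 158 and 171, with ranges of 58.8 to 164, 45.5 to 313, 97.2 to 346, 56.6 to 327 and 123 to 219. The 48 h change in females was 0.96 ± 0.32 (adjusted p = 0.0159, limma; 7 of 8 libraries), or 1.95-fold. Female Musk had a median of 98.5 estimated reads at 24 h, 579.5 at 48 h and 66 at 72 h, against 289 at 0 h. The SD of its signal was 87.2, 84 and 85.7 at 24, 48 and 72 h, against 35.5 at 0 h. The part of depth in this spread was not tested. Male medians stayed between 675 and 762 and no male change passed the test, the 48 h one being 0.15 ± 0.19 (0.596). The difference between the sexes at 48 h was 0.82 ± 0.38 (0.35).

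Ache (chromosome 5, 137285781 to 137292729, plus strand), the enzyme that breaks down acetylcholine, fell at 48 h in both sexes. Female medians were 546, 320, 267, 450 and 489, with ranges of 452 to 623, 231 to 444, 107.8 to 437, 169 to 711 and 311 to 836. Every female library at 24 and at 48 h lay below every one at 0 h. At 48 h the change was -1.17 ± 0.27 (adjusted p = 0.000643, limma), 0.445 of the 0 h level. At 24 h it was -0.71 ± 0.27 (0.0456), and this call was fragile, since it ended without any one of 14 libraries (the 8 at 0 h, 24 h replicates 1, 2, 3, 6 and 7, and 48 h replicate 3; adjusted p 0.0501 to 0.0892) and without the 7 libraries that stood apart (-0.61, 0.12). Male medians were 792, 760, 565, 905 and 753, with ranges of 695 to 1015, 394 to 976, 297 to 881, 584 to 1192 and 639 to 922. The male 48 h change was -0.53 ± 0.17 (0.018; 7 of 9 libraries lower), and without 48 h replicate 2 it was -0.41 (0.0516). From 48 to 72 h the male level rose by 0.64 ± 0.16 (0.0122; 9 of 9 libraries), and this call ended with only the 2 groups in the fit (0.0559). At 168 h neither sex passed the test, with changes of -0.02 ± 0.27 in females and -0.08 ± 0.18 in males.

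**Figure D4:**
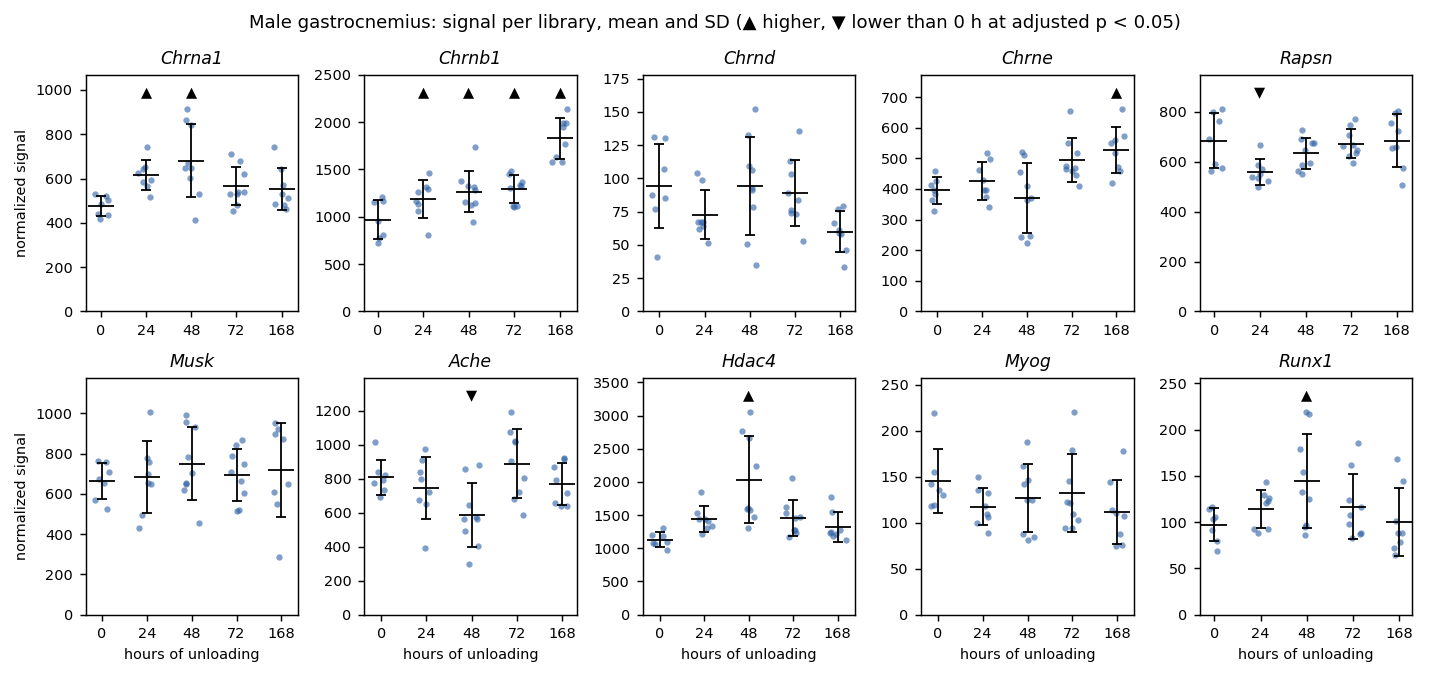
Normalized signal of each gene in each male library (points) over hours of unloading, with mean and SD (bars) and triangles for called changes against 0 h. Chrnb1 is marked at all 4 times with its highest values at 168 h, and Ache is marked lower and Hdac4 higher at 48 h.

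Hdac4 (chromosome 1, 91856501 to 92123422, minus strand), a histone deacetylase that relays loss of nerve activity to MEF2 targets, had its highest median at 48 h in both sexes. Female medians were 521, 760, 940, 735 and 549, with ranges of 434 to 640, 639 to 898, 739 to 1124, 589 to 783 and 402 to 771. The female changes were 0.54 ± 0.11 at 24 h (adjusted p = 0.000258, limma), 0.84 ± 0.11 at 48 h (1.23e-07), 0.45 ± 0.11 at 72 h (0.00142) and 0.00 ± 0.11 at 168 h (0.998). From 72 to 168 h it fell by 0.45 ± 0.11 (0.0154), which ended without 168 h replicate 1 (0.052) or replicate 3 (0.0679). This fall also ended with only the 2 groups in the fit (0.0925). At 48 h all 8 female libraries lay above all 8 at 0 h. Male medians were 1099, 1422, 1607, 1450 and 1231, with ranges of 967 to 1312, 1215 to 1845, 1311 to 3051, 1171 to 2054 and 1120 to 1770. The male 48 h change was 0.79 ± 0.14 (2.92e-05; 9 of 9 libraries), or 1.73-fold. At 24 h the male change of 0.35 ± 0.14 (0.0567; 8 of 8 libraries) did not pass, although it passed without any one of 8 libraries (0 h replicate 2, 24 h replicate 3, 48 h replicates 2, 4, 6 and 8, 72 h replicate 4 and 168 h replicate 8; 0.0397 to 0.0491). It also passed with array weights (0.038) and with only the 2 groups in the fit (0.00405). The male 72 h change was 0.35 (0.0937) and passed with only the 2 groups in the fit (0.0262). At 168 h the male change was 0.22 (0.273). From 48 to 72 h males fell by 0.44 ± 0.13 (0.0257), which ended without any one of 48 h replicates 2, 4 and 8 and 72 h replicate 6 (0.0557 to 0.0778). It also ended with only the 2 groups in the fit (0.112).

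Myog (chromosome 1, 134217727 to 134220287, plus strand), the myogenic factor that drives receptor genes after denervation, was called at no time in either sex. Female medians were 123, 133, 93.8, 124 and 112 and male medians 135, 114, 125, 121 and 108.9, with overlapping ranges throughout. The female changes lay between -0.11 ± 0.19 (adjusted p = 0.699, limma) and 0.14 ± 0.19 (0.642). Male changes were between -0.41 ± 0.19 at 168 h (0.115) and -0.17 ± 0.19 at 72 h (0.634), and the 168 h one passed without 168 h replicate 2 (-0.52, 0.0444). With array weights the female 48 h change was -0.40 (0.0201). Satellite cells, the muscle stem cells, also express Myog once they differentiate. The summed signal of their 2 measured markers in females, of 6 in the list, was 561 to 802 at 24 h, against 421 to 531 at 0 h. At 48, 72 and 168 h it was 579 to 686, 593 to 815 and 546 to 736.5. In males 4 of 6 summed to 1255 to 1495 at 24 h, against 1159 to 1332 at 0 h. At 48, 72 and 168 h the male sums were 1241 to 1644, 1226 to 1653 and 1331 to 1712. The part of these cells in the Myog values was not tested.

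Runx1 (chromosome 16, 92398354 to 92623038, minus strand), a transcription factor induced in denervated fibres, rose at 48 h in both sexes, and its female change there was the largest of any member. Female medians were 29.9, 37.6, 73.6, 51.6 and 48.6, with ranges of 20.7 to 33.7, 18.7 to 88.4, 46.5 to 152, 10.8 to 143 and 26.7 to 63.7. All 8 female libraries at 48 h lay above all 8 at 0 h, and the change was 1.47 ± 0.35 (adjusted p = 0.0011, limma), or 2.78-fold. Genes that never reached a signal of about 100 are not in the tables, and female Runx1 reached it only at 48 and 72 h. Its row is thus there only through these groups, so the test and the separation of ranges are not independent of that filter. At 72 h the change was 0.61 ± 0.35 (0.197), and it became 1.13 (0.00446) without the 7 libraries that stood apart and 0.89 (0.0318) without 72 h replicate 5 alone. It also passed with array weights (0.78, 0.022) and with quantile normalization (0.82, 0.0493). The female 24 h change of 0.51 (0.301) passed with array weights (0.74, 0.0293). Female Runx1 rested on few reads at these times, a median of 17 estimated reads at 24 h and 20 at 72 h, against 61.5 at 0 h. Male medians were 103, 122, 133, 107.8 and 88.2, with ranges of 69.2 to 116, 88.5 to 143, 86.4 to 219, 83 to 185 and 64.3 to 168. The male 48 h change of 0.52 ± 0.20 (0.0421; 7 of 9 libraries) ended without any one of 8 libraries (0 h replicates 1, 3 and 5 and 48 h replicates 1, 2, 5, 6 and 8; 0.0519 to 0.103) and with scaling to the library total (0.0645). It also ended with only the 2 groups in the fit (0.0548). White blood cells also express Runx1. Their 8 measured markers, of 11 in the list, summed in females to 779 to 1269 at 48 h, against 917 to 1551 at 0 h, and 9 of 11 in males to 1766 to 3811 at 48 h, against 1787 to 4382 at 0 h. Their part in the Runx1 values was not tested.

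Between neighbouring times some comparisons called no member. From 24 to 48 h limma called 0 of 9 members in females (4 at an unadjusted p under 0.05), where 6.66% of all genes were called, and 0 of 10 in males (3 unadjusted), where 0.0156% were. From 48 to 72 h it called 0 of 9 in females (5 unadjusted), where 0.596% of all genes were called. These shares are for adjusted calls, and the share of all genes at the unadjusted threshold was not computed.

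The study set the sexes beside each other, and the female change minus the male change was tested for the 9 members measured in both. At 24, 48, 72 and 168 h 0 members passed, where 0.0547%, 0.301%, 2.44% and 0.0182% of the 10964 shared genes did. At an unadjusted p under 0.05 there were 5 at 48 h, 3 at 72 h and 0 at the other 2 times. The share of all genes at that unadjusted threshold was not computed, so these counts cannot be set beside the shares above. The smallest adjusted p was that of Rapsn at 72 h, with a difference of 0.41 ± 0.15 (0.117, limma), followed by Chrne at 72 h with -0.63 ± 0.26 (0.173). For Chrnb1 the 95% interval of the difference ran from -0.42 to 0.24 at 168 h, and for Hdac4 from -0.29 to 0.40 at 48 h. For Runx1 at 48 h it ran from 0.16 to 1.76 around 0.96 (adjusted p = 0.31). The female Runx1 row is present only through its 48 and 72 h libraries, so this difference is not independent of that filter. These intervals do not show that the sexes acted alike.

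**Figure D5:**
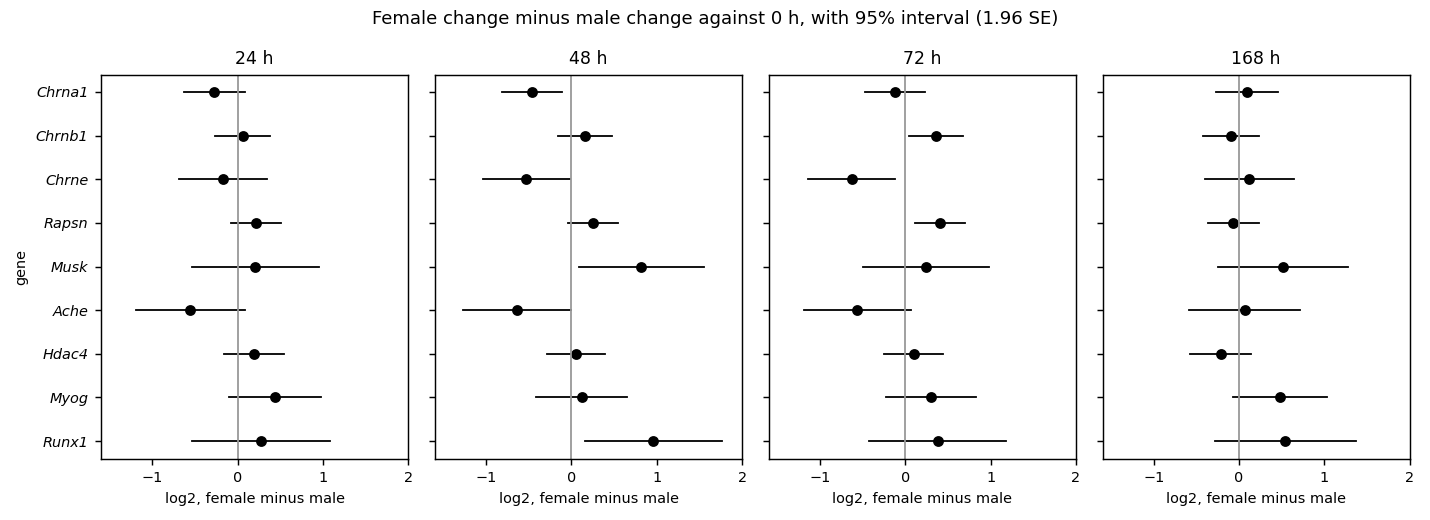
Female change minus male change against 0 h for each gene (rows) at 24, 48, 72 and 168 h, as log2 with 95% intervals. The points furthest from 0 are Runx1 (0.96) and Musk (0.82) at 48 h, and no difference passed the test after adjustment. The female Runx1 row is present only through its 48 and 72 h libraries.

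Other genes of the pathway came from 3 lists, to be read beside the share of all genes called higher and called lower. In females that share was 13.8% and 10.9% at 24 h, 21% and 17.1% at 48 h, 16.8% and 13.2% at 72 h, and 6.3% and 4.38% at 168 h. In males it was 14.8% and 14.4%, 16.3% and 14.7%, 5.61% and 5.22%, and 11% and 11.5%. Of 24 measured synapse partners (of 30 listed), females had 1 higher and 5 lower at 24 h, 2 and 8 at 48 h, 2 and 4 at 72 h, and 1 and 0 at 168 h, with medians of -0.111, -0.174, -0.159 and 0.031. Males had 1 higher and 7 lower, 0 and 8, 2 and 2, and 1 and 5 at the same times, with medians of -0.133, -0.204, -0.125 and -0.176. Dtna, which encodes a dystrobrevin of the dystrophin complex, fell at 48 h by 0.62 ± 0.13 in females (adjusted p = 0.000192, limma) and by 0.62 ± 0.09 in males (1.02e-06). Lama4, a laminin chain of the synaptic basal lamina and also of vessels, fell at 48 h by 0.70 ± 0.12 in females (1.9e-05) and by 0.48 ± 0.10 in males (0.000511). Pdzrn3, a ubiquitin ligase that binds Musk, rose in females at 48 h by 0.50 ± 0.13 (0.0022), and its male change was 0.09 ± 0.09 (0.481).

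Of the denervation response list, 17 of 20 genes were measured in females and 18 in males. Females had 4 higher and 4 lower at 24 h, 8 and 3 at 48 h, 6 and 2 at 72 h, and 4 and 1 at 168 h, and males 5 and 2, 5 and 4, 2 and 2, and 4 and 1. At 48 h the genes of this list with the largest log2 changes in both sexes were Fbxo32 and Trim63, ubiquitin ligases of muscle atrophy in general, which rose by 3.16 ± 0.42 (3.76e-07, limma) and 2.50 ± 0.39 (4.85e-06) in females, and by 2.31 ± 0.32 (1.49e-06) and 1.58 ± 0.28 (5.66e-05) in males. Hdac9, a deacetylase that falls on denervation, fell at 48 h by 1.46 ± 0.30 (0.000172) in females and by 1.10 ± 0.17 (5.42e-06) in males. Igf2, a growth factor, fell at 48 h by 0.56 ± 0.11 in females (7.01e-05) and by 0.42 ± 0.14 in males (0.0167). Dach2 was in the male table only.

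Of the fibre activity and MEF2 list, 11 of 12 genes were measured in females and 12 in males. Females had 0 higher and 3 lower at 24 h, 2 and 3 at 48 h, 2 and 1 at 72 h, and 1 and 1 at 168 h, and males 2 and 2, 3 and 2, 1 and 1, and 2 and 1. Rcan1, a calcineurin target and inhibitor, fell at every time in both sexes, at 48 h by 0.64 ± 0.13 (0.000151, limma) in females and 0.75 ± 0.13 (4.42e-05) in males. Hdac3, the deacetylase that works in complex with Hdac4 and its relatives, rose in females at 48 h by 0.29 ± 0.07 (0.000755) and in males by 0.22 ± 0.05 (0.00127). Camk2a, a kinase activated by calcium, fell at 48 h by 0.89 ± 0.18 in females (0.000136) and by 0.61 ± 0.13 in males (0.000299).

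Across libraries, Ache and Chrne moved together (Pearson r = 0.754 over 39 female and 0.677 over 41 male libraries) and each ran opposite to Runx1 (-0.643 in females and -0.454 in males for Ache, -0.565 in females and -0.535 in males for Chrne). Libraries of one table share their time groups and scaling, so these are descriptions with no test. Of 8527 candidate genes with a mean signal of at least 100 in both tables, the gene whose values ran most like those of Ache was Ufsp1 (0.913 in females, 0.873 in males). Ufsp1 lies 162 bases beyond the end of Ache on the same strand, and whether reads of one were counted to the other was not tested. Chrne ran most like Gpd1, which encodes a glycerol phosphate dehydrogenase (0.819 in females, 0.824 in males), and Smox, a spermine oxidase (0.816 in females, 0.832 in males). Chrnb1 ran most like Riok3 (0.769 in females, 0.817 in males) and Hdac4 like Mettl7a1 (0.827 in females, 0.728 in males). For Musk the first gene was Ankhd1 (0.823 in females, 0.721 in males), for Runx1 Ctnna1 (0.726 in females, 0.681 in males) and for Rapsn Hsf1 (0.686 in females, 0.629 in males). Chrna1 with Snrpd3 (0.485 in females, 0.604 in males) and Myog with Fam136a (0.491 in females, 0.489 in males) had weaker first matches than the other members.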

How the data were processed

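The authors deposited one table per sex, whose expression values are a normalized signal, and not whole counts. The submitters' processing notes name STAR 2.7.8a, DESeq2, Partek, mm10 and mm39 but tie none of them to a step, and strand use in counting is not given in the sources used here. Genes that never reached a signal of about 100 are not in the tables. The file's own comparison columns, the authors' deposited ratio and p-value for each time, were read for one check. The step between low values gave the estimated depth (53.9% to 71.7% of values from 2 to 120 were whole multiples within 0.03, where 6% would be by chance), and whole counts were not recovered.

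The signal was analysed as log2(signal + 1) with limma 3.58.1 in R 4.3.3, with a variance trend and robust moderation, in one model of all 5 groups per sex and one of all 10 groups over the 10964 shared genes. The pseudocount of 1 understates changes of low genes. All p-values are two-sided, and a 95% interval is the estimate with 1.96 SE on each side. The plan named edgeR in case the values were counts, and they were not. The steps were tested on simulated data. Python 3.11.15, numpy 2.4.6, pandas 2.3.3 and matplotlib 3.10.9 did the rest. "Higher in n libraries" is against the mean of the other group. Named genes are all members, up to 4 genes of each list by smallest p, and the 2 most like each member, the gene of a like pair being ranked by the lower correlation of both sexes. The members and lists were chosen with earlier results of these data known. Genes that overlap a member in the GRCm38 annotation (such as an antisense RNA at Runx1) were in neither table, so shared reads cannot be separated. Alternatives were pseudocount 10, a mean of at least 50, 2 scalings, array weights, fits of 2 groups, and left-out libraries.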

Additional observations from a re-analysis of the deposited data

Results flagged for a closer look

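In 3 of 95 groups of 7 to 9 libraries, one library lay further from the rest than Dixon's 95% limit allows, and chance alone flags about 1 in 20 groups. Myog had 203 in female 168 h replicate 4, where the others had 95.2 to 141. Myog had 219 in male 0 h replicate 3, where the others had 118 to 155. Runx1 had 20.7 in female 0 h replicate 6, where the others had 28.5 to 33.7. None of the 3 libraries was among the 7 that stood apart from their groups.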

How the results depend on the processing

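No paired analysis was possible because replicate numbers were given in accession order and tie no library to another. Of 169 changes of members tested, 31 were called, and of 1461 refits of these 1370 kept the call, 91 lost it and 0 changed sign. Leaving out one library at a time, the number of members called against 0 h ran in females from 2 to 3 at 24 h, 6 to 6 at 48 h, 3 to 4 at 72 h and 1 to 1 at 168 h, and in males from 1 to 4, 3 to 5, 1 to 1 and 1 to 3. Between times it ran in females from 0 to 2 (48 against 24 h), 0 to 1 (72 against 48 h) and 0 to 3 (168 against 72 h), in males from 0 to 0, 1 to 3 and 0 to 1. For the course it ran from 6 to 7 in females and 5 to 7 in males, and for the sex difference it stayed 0. Array weights gave 2 members in females at 168 h, 1 at 48 against 24 h and 1 at 72 against 48 h, and 2 in males at 72 h. In these comparisons they called 3120, 286, 206 and 2103 of all genes, against 1182, 737, 66 and 1392 in the main fit. They also added Runx1 in females at 24 and 72 h and Myog in females at 48 h. In males they added Hdac4 at 24 h and Chrnd at 168 h. Scaling to the library total gave 1 in females at 48 against 24 h and 1 in males at 24 h. Fitting only the 2 groups compared gave 2 in females at 168 h and 0 at 168 against 72 h, and in males 3 at 72 h and 0 at 72 against 48 h. Only 1 male 72 h library has an S number in the range of the controls, and 2 have S numbers above those of the 24 and 48 h libraries (that setting added after seeing the data). An arm of 1 or 2 libraries can hardly pass a test over all genes, so the 0 members called with either at 72 against 0 h, 72 against 48 h and 168 against 72 h say nothing about stability. The log2 changes themselves were, with the 1 and with the 2, 0.459 and 0.551 for Chrnb1 at 72 against 0 h, and at 72 against 48 h 0.872 and 0.983 for Ache, 0.369 and 0.349 for Chrne and -0.421 and -0.516 for Hdac4. Uncalled changes at 72 against 48 h turned their sign with the 1 (Chrna1 0.037, Rapsn -0.091, Runx1 0.235) and with the 2 (Rapsn -0.027), and the cause was not tested. Scaling to the library total moved the share of higher among all genes called in females at 72 h to 71.5%, against 56%, in females at 24 h to 39.8%, against 55.9%, and in males at 24 h to 32.6%, against 50.7%, and it ended 4 calls of members (Chrna1 and Chrnb1 in males at 24 h, Runx1 in males at 48 h and Chrnb1 in females at 24 h), added Hdac4 in females at 48 against 24 h and turned the direction of none. It shifted the median change of all genes in females to 0.102 at 48 h and 0.115 at 72 h. Runx1 and Musk rested on few estimated reads in the female 24 and 72 h libraries, and the effect of depth on them was not tested.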

Other observations

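In the authors' deposited table, 21 rises and 6 falls of members against 0 h had an adjusted p under 0.05 in 76 comparisons. Of these, 19 rises and 5 falls were called by limma as well, and 49 comparisons were called by neither. The authors' deposited table alone called Hdac4 in males at 24 h (ratio 1.28, adjusted p = 0.0481), Runx1 in females at 72 h (2, 0.0118) and Chrnd in males at 168 h (0.647, 0.0427).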
